A study of Trametes elegans with 15 samples.

Results

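Steady genes of moderate or low level were taken from the transcripts that the white-rot fungus *Trametes elegans* (sample titles use *Artolenzites elegans*) made in 5 media. A gene was a member where its highest and lowest deposited values over the 5 media lay less than 0.75 apart on the log2 scale, a 1.68-fold span, and its lowest value was under 12, or 4095 normalised reads. Of the 949 listed genes 99 met both conditions (10.4%). The mycelium was of strain BRFM 1663 and was grown for 3 days in shaken flasks at 30 °C. The control medium held maltose at 20 g/l, and each of the other 4 combined maltose with a solid at 15 g/l, which was Avicel (microcrystalline cellulose), wheat straw, pine or aspen. Maltose was at 2.5 g/l in all but the aspen medium, whose amount is garbled in the labels, so a solid and a change in maltose cannot be told apart. All media shared the same salts, yeast extract and thiamin. The labels list 3 samples a medium from this 1 strain.

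White-rot fungi break down the cellulose, hemicellulose and lignin of plant cell walls with secreted hydrolases and oxidases, and transcripts for such enzymes often follow the carbon source. Genes that serve growth on any carbon source, such as those for translation, the cytoskeleton or core metabolism, are the usual candidates for a level that stays put. Steady transcripts are also the kind that quantitative PCR uses as references. The table gives gene numbers of the species' MycoCosm portal without names, so no member could be assigned to such a role and the genes are described by number.

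The 5 values that chose the members come from all 5 media, so no difference between media was tested on them and their flatness is a description. Each deposited value is a mean over libraries. Whole reads per library were recovered from its decimals, for 2 libraries on wheat straw and 3 on each of the other media. Of the 3 straw samples in the labels, 1 is thus not analysed here. For the 99 members all 14 libraries were recovered, though some read sets at levels from 9 to 13 are uncertain. Libraries are called a, b and c within a medium, by the worth of 1 read, and carry no replicate number. Reads summed over the 785 genes with complete recovery ran from 419595 (pine c) to 1180016 (straw a). Such sums do not measure depth. They also cannot be compared between straw and the other media, because levels of 13 or more were decoded on straw alone. The labels do not say that replicates came from separate cultures, so an SD between libraries may be technical. In RNA of whole mycelium, less transcript per cell and fewer cells with the transcript cannot be told apart. A level is log2(normalised read count + 1) and is not divided by gene length, so it says how many reads stood behind a value and does not rank transcripts by abundance.

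Most listed genes moved far more than the members did. The median range over the 5 media was 1.69 for all 949 genes, and 714 of them (75.2%) had a range of at least 1. Over the members the range ran from 0.20 to 0.75, with a median of 0.58, or quartiles of 0.48 and 0.66. It was below 0.25 in 4 members, below 0.5 in 30 and at 0.5 or more in the other 69. The mean level of the members ran from 2.59 to 12.23 with a median of 8.85, beside 8.77 for all listed genes. Members made up 7.02% of the genes with a mean level below 4, 12.1% from 4 to 6, 8.67% from 6 to 8, 14.3% from 8 to 10 and 11.9% from 10 to 12. They were thus spread over all levels that the rule admits. A further 24 genes had a range below 0.75 with a lowest value of 12 or more, which brings the genes of such a range to 123 of 949.

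**Figure D1:**
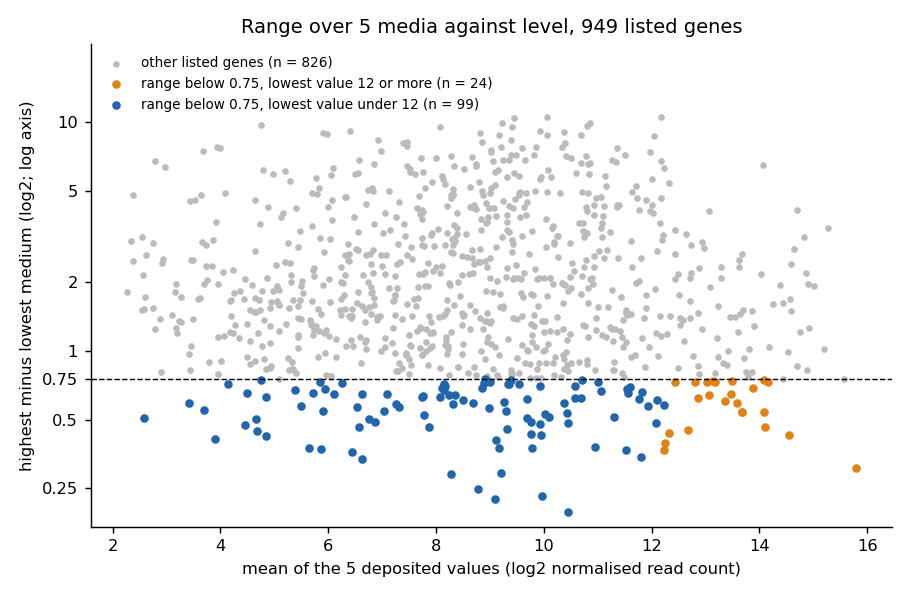
Range over the 5 media (highest minus lowest deposited value, log2, on a log axis) against the mean of the 5 values, with 1 point a gene. The 99 members lie under the dashed line at 0.75 from a mean level of 2.59 to 12.23, the 24 abundant steady genes lie under it to the right, and the other 826 genes lie on or above it.

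The flattest member was gene 796603, whose deposited levels lay between 10.34 on aspen and 10.54 on pine. Its libraries a, b and c were at 10.44, 10.58 and 10.48 on maltose, at 10.46, 10.45 and 10.39 on cellulose, and at 10.59, 10.54 and 10.48 on pine. They were at 10.38 and 10.39 on straw and at 10.19, 10.50 and 10.33 on aspen. The aspen libraries spanned more than the media did, and aspen b reached into the pine values. The range of 0.197, a 1.15-fold span, had an SE of 0.08 from a limma fit over all media. Here and below, such an SE is that of a difference between media fixed beforehand. The highest and lowest media were picked from the same values, so a range set against its SE is not a test.

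Gene 817647 was nearly as flat, with 9.06, 9.17 and 8.77 in its pine libraries and levels of 9.03 ± 0.08 on aspen, 9.06 ± 0.23 on cellulose, 9.16 ± 0.09 on maltose and 9.22 ± 0.02 on straw (SD, n = 3, and n = 2 on straw, as in all values below). Its range, from pine to straw, was 0.224 (SE 0.14). Gene 855329 lay between 9.83 ± 0.08 on aspen and 10.07 ± 0.14 on pine, a range of 0.232 (SE 0.09). Gene 422313 lay between 8.64 ± 0.18 on cellulose and 8.89 ± 0.28 on pine, with a range of 0.248 (SE 0.15). Gene 105829 lay between 8.12 ± 0.09 on cellulose and 8.41 ± 0.12 on straw, with a range of 0.289 (SE 0.13). In 3 of these 5 genes (796603, 855329 and 422313) the libraries of the highest medium overlapped those of the lowest, beside 14 of all 99 members. Among the 785 genes recovered in every library, 97.2% had no such overlap. All 5 genes named here had over 200 reads in every library.

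Among the members with the most reads was gene 762013. On maltose its libraries were at 12.29, 12.41 and 12.28, on cellulose at 12.45, 12.40 and 12.54, and on pine at 12.24, 12.24 and 12.38. On aspen they were at 12.38, 12.06 and 12.06, and on straw at 11.78 and 11.99. Both straw libraries were below the other 12, which ran from 12.06 to 12.54. The difference between cellulose and straw was 0.58 (SE 0.10). Gene 784012 was at 11.72 and 11.73 in the straw libraries and between 11.82 and 12.35 in the other 12, a range of 0.61 (SE 0.07). Gene 936751 went the other way, with 12.29 and 12.30 on straw and 11.74 to 11.89 on maltose, a range of 0.484 (SE 0.07). Gene 407883 was highest on cellulose, at 12.18 ± 0.11, and lowest on pine, at 11.60 ± 0.03. Gene 454859 was highest on pine, at 12.21 ± 0.06, and lowest on maltose, at 11.55 ± 0.07. In these 5 genes the highest and lowest media did not overlap by library, as in 97.2% of the 785 genes recovered in every library. The highest medium was cellulose in 762013, 784012 and 407883, straw in 936751 and pine in 454859.

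At the other end, gene 875666 had 2 to 8 reads a library. It held 8, 5 and 5 reads on maltose, 4, 2 and 8 on cellulose, 8 and 5 on straw, 5, 6 and 2 on pine and 7, 5 and 4 on aspen. Its levels lay between 2.41 on pine and 2.91 on straw, and every medium overlapped every other. The SE of its range of 0.508 was 0.50, about as large as the range itself, and no test was made. Gene 494036 held 7 to 13 reads a library, with a range of 0.593 (SE 0.30). Gene 528116 held 6 to 20 reads, with a range of 0.55 (SE 0.38), and gene 276824 held 7 to 22, with a range of 0.411 (SE 0.32). Gene 879633 held 10 to 29 reads, and its 3 aspen libraries, at 4.48, 4.62 and 4.88, were above the other libraries except straw a at 4.70. These 5 genes have the lowest levels of all members. On the scale with 1 added to each count, differences between media are understated in genes with so few reads. Such genes therefore meet the limit on the range more easily.

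**Figure D2:**
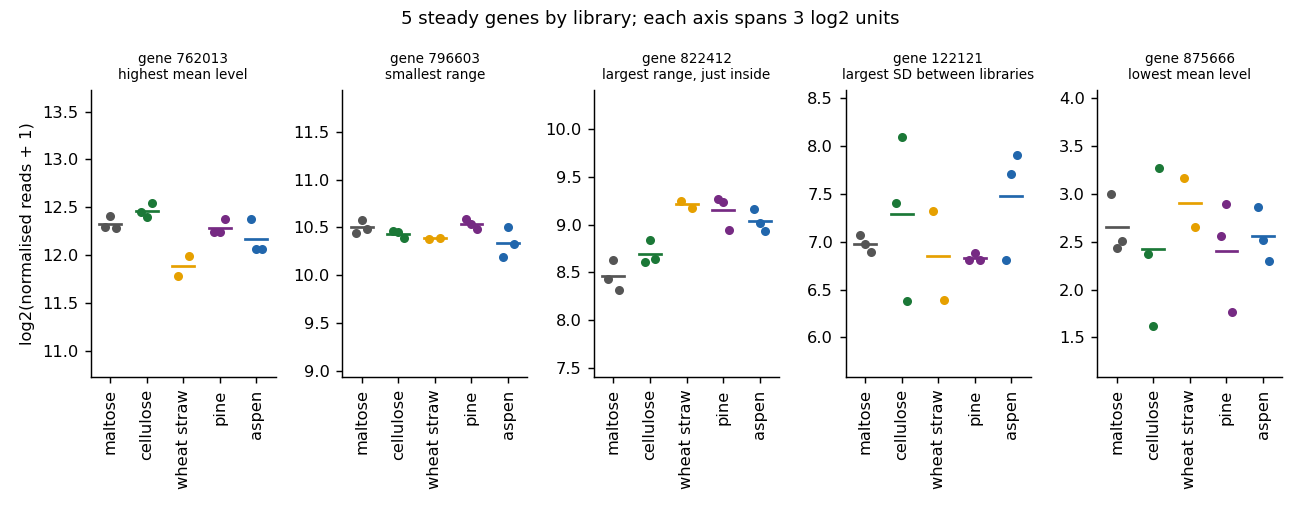
Level of 5 members in each recovered library (points) with the mean of each medium (bars), in log2(normalised reads + 1), on axes that each span 3 log2 units. Gene 796603 stays between 10.19 and 10.59, gene 762013 drops on straw, gene 822412 is lowest on maltose, and on cellulose the libraries of genes 122121 and 875666 scatter by more than the media differ.

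Within their narrow range the members differed in which medium was highest or lowest. Aspen was the highest medium in 30 members, wheat straw and pine in 20 each, cellulose in 18 and maltose in 11. Maltose was the lowest medium in 25, aspen in 23, cellulose and straw in 18 each and pine in 15. Aspen was thus highest in 30.3% and lowest in 23.2% of the members, beside 19.9% and 12.8% of all 949 genes. Straw was highest in 20.2% of members and in 228 of the 949, pine in 20.2% and 20.1%, cellulose in 18.2% of both, and maltose in 11.1% and 17.7%. Maltose was lowest in 25.3% of members and 33.0% of all genes, pine in 15.2% and in 237 of the 949, cellulose in 18.2% and 16.4%, and straw in 18.2% and 12.9%. Maltose lay between the solids in the other 63 members, and its shares as highest and lowest medium over all genes are given above. Both woods were above the other 3 media in 11 members and below them in 9. The 5 media stood in 71 different orders among the 99 members, and no order was shared by more than 3. The counts for the woods and for the orders were not made over all 949 genes, so they are not read as a trait of the members. Such orders rest on differences below 0.75 and, in genes with few reads, on differences smaller than the spread between libraries.

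Maltose lay farthest below the other media in gene 622347, at 7.29 ± 0.18 against levels from 7.82 ± 0.11 (cellulose) to 7.92 ± 0.07 (aspen). All 3 maltose libraries were below the 11 others. Gene 822412 was at 8.43, 8.63 and 8.32 on maltose and at 8.61, 8.84 and 8.64 on cellulose. It was at 9.25 and 9.17 on straw, at 9.27, 9.24 and 8.94 on pine and at 9.16, 9.02 and 8.93 on aspen. The 3 plant materials were above both other media in every library, and this member had the largest range of all, 0.7499 (SE 0.13). Maltose lay farthest above the mean of the other 4 in gene 260772 (by 0.45) and in gene 104276 (by 0.44). In 260772 pine, at 9.58 ± 0.05, came close to the maltose level of 9.71 ± 0.05, while straw was at 8.99 ± 0.21.

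Cellulose stood highest above the other media in gene 816798, at 12.04 ± 0.07 against 11.39 to 11.51, and in gene 851720, at 9.81 ± 0.12 against 9.09 to 9.46. It stood lowest in gene 846591, at 5.68 ± 0.25 against 5.99 to 6.33, and in gene 372403, at 7.77 ± 0.19 against 8.15 to 8.47. Straw was farthest above the rest in gene 875002, at 5.68 and 4.78 in its 2 libraries, where it overlapped the other media, and in gene 816502, at 11.98 and 11.97. In gene 816502 cellulose a, at 11.99, was as high. Straw was farthest below the rest in gene 808408, at 7.84 and 7.98, and in gene 784012, named above.

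Pine stood out upward in gene 454859, named above, and in gene 802428, where its libraries were at 9.09, 9.18 and 8.96 and the other 11 between 8.37 and 8.84. It stood out downward in gene 876983, at 8.93 ± 0.17 beside 9.67 ± 0.04 on aspen, and in gene 939714, at 7.86, 7.75 and 7.76 beside 8.21 to 8.54 in the other 11 libraries. Aspen was farthest above the rest in gene 879633, with few reads, and in gene 913819, at 10.30, 10.51 and 10.48 against 9.60 to 9.97. It was farthest below the rest in gene 805751, at 10.13, 10.29 and 10.24 against 10.53 to 11.12, and in gene 803594, at 5.76 ± 0.29 against 6.26 to 6.49. Each of these genes was picked because a wood lay far from the other media, so a difference between the woods is part of the choice. Aspen was above pine in 876983 and 913819 and below it in 805751, where pine was at 10.97 ± 0.17.

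**Figure D3:**
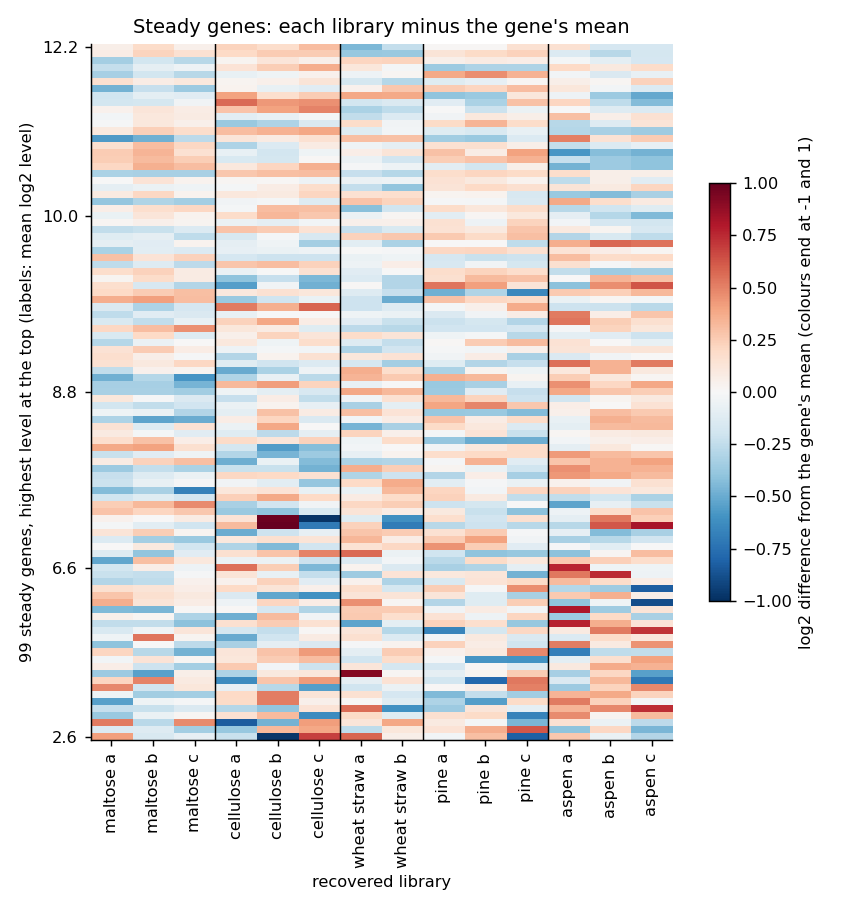
Each recovered library (columns, grouped by medium) minus the member's mean over the 5 media, for the 99 members (rows, highest level at the top). Colours end at differences of -1 and 1 log2. No column is of 1 colour throughout, and rows with few reads, towards the bottom, show more scatter between libraries of a medium.

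Pair by pair, the members' median differences were close to 0. Cellulose differed from maltose by a median of 0.05, straw by 0.02, pine by 0.03 and aspen by 0.11, beside 0.22, 0.26, 0.08 and 0.27 over all 949 genes. Differences under 0.5 in either direction held for 84, 85, 88 and 78 of the 99 members in the same order, and for 37.0%, 33.9%, 37.3% and 34.6% of all genes. Between pine and aspen the members' median was 0.02, and over all genes aspen was higher by a median of 0.30. The rule fixes these differences below 0.75, so nothing is read from them beyond their values. In 85 members all libraries of the highest medium lay above all libraries of the lowest medium, beside 763 of the 785 genes recovered in every library (97.2%). The other 14 members overlapped there, and 11 of these had a mean level below 8. Below a level of 6 were 9 of the 14, beside 20 of all 99 members. The SE of the difference between the highest and lowest medium had a median of 0.13 over the members and ran from 0.07 to 0.50.

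The members nearest the range limit show how little separates them from the genes just outside it. Inside it, after gene 822412, came gene 805751 at 0.7486, gene 876983 at 0.7465, gene 875002 at 0.7459 and gene 825495 at 0.7343. Just outside were gene 253747 at 0.7539, gene 939409 at 0.7606 and gene 809989 at 0.7615. These steps are far smaller than the SEs of 0.09 to 0.31 of the members named. At the limit on level, genes 762013, 936751 and 784012 were just inside with lowest values of 11.89, 11.81 and 11.72. Genes 849147, 813250 and 752727 were just outside with 12.01, 12.04 and 12.08.

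Replicate libraries of the members lay close together, though the search for whole reads limited how far apart they could lie. The SD between libraries, pooled over the media, had a median of 0.13 in the members and 0.20 in all 785 genes recovered in every library. At a mean level of 8 to 10 the median was 0.12 in 37 members and 0.17 in 212 other genes, and at 10 to 12 it was 0.09 in 22 members and 0.16 in 121 others. From 4 to 6 it was 0.27 in 16 members and 0.33 in 116 others. A gene that varies between libraries is less likely to meet the rule, so no test was made of this difference. Counting of reads alone would give a median SD of 0.06 for members at 8 to 10 and of 0.25 at 4 to 6. The spread of 41 members was within 1.5 times that counting SD, and that of 39 was at least 2 times as large. Other genes were not counted in this way, and at 8 to 10 their median SD from counting was 0.08. The smallest SDs were 0.035 for gene 848596, 0.051 for gene 806643 and 0.052 for gene 766987. Gene 848596 was picked for its small SD, so that SD is no measure of how far its media lie apart. Its levels were 10.25 ± 0.01 on maltose and 10.32 ± 0.05 on straw. They were 10.68 ± 0.06 on aspen, 10.77 ± 0.02 on pine and 10.87 ± 0.02 on cellulose. The limma SE of cellulose minus maltose in this gene was 0.07, and no difference between its media was tested.

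**Figure D4:**
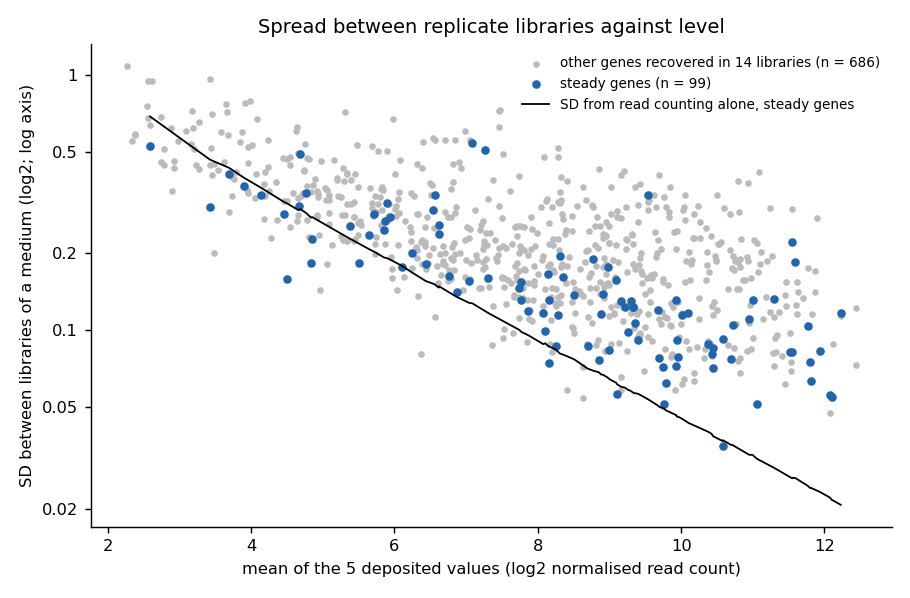
SD between libraries of the same medium, pooled over the media (log2, log axis), against mean level for the 99 members and the other genes recovered in 14 libraries. The line is the SD that counting of reads alone would give in the members. The members scatter around the line at low levels, where genes 122121 and 371118 lie far above it, and most of those at higher levels lie above it, with gene 848596 among the exceptions.

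A steady mean did not always mean steady libraries. Gene 122121 was at 7.40, 8.09 and 6.38 on cellulose, at 7.32 and 6.39 on straw, and at 6.81, 7.71 and 7.91 on aspen. On maltose, at 7.07, 6.98 and 6.89, and on pine, at 6.81, 6.88 and 6.81, it was nearly flat. Its SD of 0.54 compares with 0.13 from counting, and its range of 0.65 had an SE of 0.37. Gene 371118 was at 7.40, 8.24 and 6.28 on cellulose and at 7.30, 7.26 and 7.34 on maltose, with an SD of 0.51 beside 0.12 from counting. Over all 14 libraries it spanned 1.96, the widest of the members. The span over 14 libraries was below 0.75 in 33 members, below 1 in 73 and at 1 or more in 26. Of the 785 genes recovered in every library 97 spanned less than 1, and the other 24 of these were not members. In 26 members the SD of the 5 medium values was no larger than the SD between libraries, and 21 of these had a mean level below 8. The rule limits the SD of the medium values, which are means over libraries, while the SD between libraries is of single libraries. This count was not made for other genes, so nothing is read from it.

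The flatness of these genes is relative to the authors' scaling of the libraries. The median level of all 949 genes was low on maltose (8.10) and pine (8.11) and higher on cellulose (8.86), aspen (8.91) and straw (9.21). The members' own median levels were 8.51, 8.79, 8.68, 9.03 and 8.83 in the same order. When each medium was centred on the median of all listed genes, 3 of the 99 members kept a range below 0.75 and 79 had a range of 1 or more. The members' median difference from maltose was then -0.71 for cellulose, -1.09 for straw, 0.02 for pine and -0.69 for aspen. The 3 that kept a range below 0.75 were genes 127609, 825495 and 878949, out of 32 genes that met the rule under this scaling. Quantile normalisation left 17 members below 0.75. Shifting each medium by the median of its genes' deviations from their own means left 73, with median differences from maltose of -0.17, -0.27, -0.03 and -0.17. How the listed genes were selected is not stated in the table or the labels. Which of these scalings matches the whole transcriptome was not tested.

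**Figure D5:**
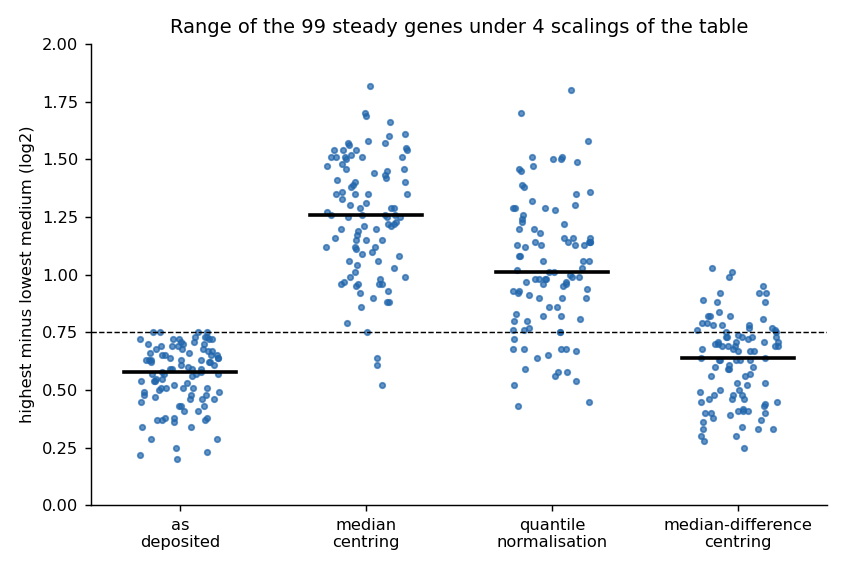
Range of each of the 99 members over the 5 media (log2, 1 point a gene, bar at the median) as deposited and under 3 other scalings of the table, with the limit of 0.75 dashed. The median rises from 0.58 as deposited to 1.26 after median centring and 1.01 after quantile normalisation, and is 0.64 after median-difference centring.

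The reads of the members, summed in each library, ran from 76847 (pine c) to 100316 (aspen a), a 1.31-fold span. The rule chose near-equal normalised levels in all media, so a narrow span of these sums is largely fixed by it and by the scaling. Within a medium, a library's median deviation from the medium's mean over the members lay between -0.033 (maltose a) and 0.034 (maltose b). These deviations are of libraries already scaled by the authors, and each of these deviations on maltose is about as large as the SD of 0.035 between libraries of gene 848596. The groups behind each value are small, and for straw the SE rests mostly on the spread in the other media.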

How the data were processed

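Per the labels' protocols, libraries were made from poly A RNA of mycelium and read in pairs on a HiSeq 2500. TopHat2, HTSeq and DESeq 1.5 are listed in the submitters' processing notes, with no roles. Genome build and annotation: not given in the sources used here. Deposited by the authors was 1 table of 949 genes with 1 normalised log2 read count per medium, per the file headers. How libraries were combined, scaled and selected is not stated there. Overlapping genes, near-identical copies and strand could not be examined.

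Each value was decoded as a mean over libraries of log2(reads x factor + 1) with whole reads. Of 20 low values per medium, 20 decoded with 3 libraries, and on straw with 2. Tolerances were 4e-14 (natural log units) below level 10 and 1.5e-13 above, and factors were sought from 0.8 to 1.25. Of 4745 values 4370 gave exactly 1 set, including 2564 of 2564 below level 9, where 0 decoys shifted by 1e-06 did. From level 9 to 13, 1700 of 1741 did, while 28 decoys decoded too, which leaves some of those sets uncertain. With 3 libraries, each library was sought within 1.5 log2 of the deposited value at levels from 9 to 11. From 11 to 13 it was sought within 1 log2, and levels of 13 or more were not searched. Recovery was tested on simulated pine and straw columns with levels below 11 only, so higher levels were not covered by that test. Search settings were settled after the data were seen.

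Limma 3.58.1 (R 4.3.3) on the recovered log2 values of 785 genes, with 1 mean per medium and an intensity trend, gave the SEs. It gave no p-value here. The counting SD is the SD expected from the number of reads. It leaves out the 1 added to each count and so overstates the counting spread of genes with few reads. Genes were named by fixed rules (extreme ranges, levels, SDs, leanings to a medium and nearness to the limits). The members and these rules were chosen with earlier results of these data known. Python 3.11.15 was used.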

Additional observations from a re-analysis of the deposited data

How the results depend on the processing

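The number of steady genes was 99 and changed with the scaling and with the range limit. It was 32 after median centring, of which 3 were members, 50 after quantile normalisation, of which 17 were members, and 99 after median-difference centring, of which 73 were. The members' median range of 0.58 became 1.26 after median centring and 1.01 after quantile normalisation. A range limit of 0.5 gave 30 genes and a limit of 1 gave 194. The rule over 4 media gave 155 genes without maltose, 174 without pine and 153 without aspen, with 139 and 138 without cellulose or straw. Leaving out a medium cannot widen a range, so a rise in these counts was largely fixed in advance. Leaving out 1 library at a time gave 90 to 104 genes, of which 88 to 98 were members, and genes not recovered in that medium kept their deposited value. The median range was then 0.57 to 0.62, the median level 8.84 to 8.87 and the median SD between libraries 0.124 to 0.137. That SD was 0.131, and 0.159 when each library was centred on its own median. A pseudocount of 5 gave 115 genes. Below a level of about 6, the number of reads limits what the range can show. No paired analysis was possible because the recovered libraries carry no replicate number and no test was made.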

Other observations

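Genes 122121 and 371118, the members with the largest spread between libraries apart from the rarely read gene 875666, were high and low in the same libraries on cellulose and straw. On cellulose they were at 7.40 and 7.40 in library a, at 8.09 and 8.24 in b and at 6.38 and 6.28 in c, and on straw at 7.32 and 7.14 in a and at 6.39 and 6.65 in b. On aspen both were lowest in library a, at 6.81 and 7.17, but the order of b and c differed between them. Genes 816798 and 816502 behaved likewise on the woods. On pine both were highest in library c, at 11.85 and 11.70, and on aspen both were highest in a and lowest in c, at 11.77, 11.30 and 11.12 in 816798 and at 11.54, 11.23 and 11.08 in 816502. Genes 816798 and 816502 lie at levels where some recovered read sets are uncertain. Both pairs were picked after their values were seen, and no test was made.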
